A study of Rattus norvegicus with 2 samples.

Results

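Oxidative phosphorylation genes were examined in fetal rat skin at embryonic stages E16 (day 16.5) and E19 (day 18.5). They were taken from the array by name: genes called Nduf, Sdha to Sdhd, Uqcr, Cox4 to Cox8 or Atp5, with Cox7a1 left out and the brightest probe standing for a gene with several. This gave 71 of the 18344 genes with a name on the array. Complex I had 32 of them, complex II had 4, complex III had 5, complex IV had 16 and complex V had 14. The rule used names and brightness only, and no stage difference. By their current names, 5 of the 71 are not subunits: Ndufaf1 is an assembly factor, Atp5s is now Dmac2l, Cox4nb is now Emc8, Cox6c1 is a Cox6c pseudogene, and Cox7a2l joins respiratory complexes into larger assemblies. Ndufa4 and Cox7a1 had no probe of this name.

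The skin came from Sprague Dawley rats, with no treatment and no genetic change in either group. RNA of 4 E16 samples was pooled, and RNA of 3 E19 samples was pooled. Both pools were hybridised together on 2 Agilent arrays, with E19 in the red dye Cy5 and E16 in the green dye Cy3 on one and the dyes exchanged on the other. There is thus 1 pool per stage and no replicate check of any stage difference. Values are log2 ratios of E19 over E16, given per array or as the mean ± SD of the 2 arrays (n = 2 technical measurements), and this SD holds nothing of the variation between animals.

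Oxidative phosphorylation is the last stage of respiration in the mitochondrion. Complex I takes electrons from NADH and complex II from succinate, ubiquinone carries them to complex III, and cytochrome c carries them on to complex IV, which reduces oxygen. Complexes I, III and IV pump protons across the inner membrane as they work, and complex V, the ATP synthase, lets the protons return and makes ATP. Most subunits are encoded in the nucleus, while a small set that includes the catalytic subunits of complex IV is encoded in mitochondrial DNA. The names examined here are all of nuclear genes. In brown fat, which forms under the skin of the back before birth in rodents, Ucp1 lets protons return without making ATP, and tissue-specific isoforms of complex IV subunits are used in heart, skeletal muscle and brown fat.

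Promoters of 62 of the 71 genes were found in RefSeq (assembly GRCr8), as windows of 300 bases from 250 before to 50 after the annotated start. They were searched on both strands for 4 motifs of factors known to act on nuclear genes of the respiratory chain. The 4 stretches of 100 bases that follow were chosen by stage ratio among promoters that held a match. Uqcrc1, Atp5a1 and Ndufs1 have the largest ratio in complex III, in complex V and among the catalytic subunits of complex I. Cox8a, of complex IV, has a ratio near 0 and matches to the same ETS motif as Atp5a1 and Ndufs1. Ndufv3l, with the largest ratio of complex I and an NRF1 match, is not shown. Capitals mark the motif matches, and positions are counted from the start site as 0. Each is written 5′ to 3′ in the direction of transcription.

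Uqcrc1, chr8:118468145-118468244, plus strand, matches to the NRF1 motif centred at -59 and -35 and to the YY1 motif at 3: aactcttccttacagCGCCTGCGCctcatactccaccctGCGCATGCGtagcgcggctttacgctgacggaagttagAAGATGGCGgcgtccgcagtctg
Atp5a1 (now Atp5f1a), chr18:73567430-73567529, plus strand, a match to the ETS motif at -57: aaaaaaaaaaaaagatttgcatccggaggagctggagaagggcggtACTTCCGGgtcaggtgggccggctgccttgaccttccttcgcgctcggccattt
Ndufs1, chr9:72073752-72073851, minus strand, a match to the ETS motif at -196: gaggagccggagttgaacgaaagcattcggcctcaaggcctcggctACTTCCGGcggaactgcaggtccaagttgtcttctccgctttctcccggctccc
Cox8a, chr1:213833609-213833708, minus strand, matches to the ETS motif at -54 and -16: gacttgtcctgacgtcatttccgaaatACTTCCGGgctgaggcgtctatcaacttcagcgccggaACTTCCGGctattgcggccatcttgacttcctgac

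Of the 71 genes, 70 were well above background in both pools on both arrays, and 0 were saturated. The exception was Cox6b, now Cox6b1, a subunit of complex IV on its outer face. For neither pool was its probe well above background on both arrays. Between 71.5% and 74.3% of all spots were well above background per channel, and 14791 named genes were detected. Markers of keratinocytes (7 of 10) and of dermal fibroblasts (8 of 8) were well above background in both pools. The number of arrays limits the precision of every ratio.

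The oxidative phosphorylation genes were slightly higher in E19 than the typical gene. Their median log2 ratio was 0.23, or 1.17-fold, against 0.02 for all detected genes. By array it was 0.18 with E19 in Cy5 and 0.30 with the dyes exchanged, against 0.03 and 0.02. Of the 70 genes, 60 had a mean ratio above 0. The range ran from -0.33 for Cox6b2 to 0.70 for Uqcrc1, and the quartiles lay at 0.13 and 0.38. The quartiles of all detected genes lay at -0.22 and 0.27. In pooled tissue, more cells of a type with many mitochondria and more RNA per cell cannot be told apart.

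The ratios were small. At a limit of 2-fold on both arrays, 0 of the 70 genes were higher in E19, where 4.14% of all detected genes passed, and 0 were higher in E16, where 3.75% passed. At 1.5-fold (0.585 on the log2 scale), 1 gene, Atp5a1, was higher in E19 on both arrays, against 9.55% of all genes, and 0 were higher in E16, against 7.67%. In direction the counts were further from those of all genes. In all, 49 of 70 (70%) were above 0 on both arrays, against 42% of all genes, and 4 were below 0 on both, against 36.5%. The 4 were Ndufs4, Ndufa7, Cox8a and Cox6b2. The other 17 had opposite signs on the 2 arrays, 9 of them above 0 with E19 in Cy5 and 8 with the dyes exchanged.

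The zero of these ratios is set within each array by spots of similar brightness, through a smooth fit (loess), and it moves with the scaling. Probes of the oxidative phosphorylation genes had a median log2 brightness of 15.16, against 10.40 for all detected genes. The medians and shares of all genes given here thus come mostly from dimmer probes. On 10 spike-in control RNAs, the mean ratio was 0.22 (SD 0.04 over the RNAs), and all 10 were above 0. Centred on them, the median of all genes moved to -0.20 and that of the oxidative phosphorylation genes to 0.01, so that the distance between both stayed at 0.21. Under that scaling 18 of the 70 were above 0 on both arrays and 15 below, and complexes II, IV and V had medians of -0.02, -0.04 and -0.02. Higher and lower are therefore meant against spots of similar brightness on the same array, and not per cell or per amount of RNA.

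**Figure D1:**
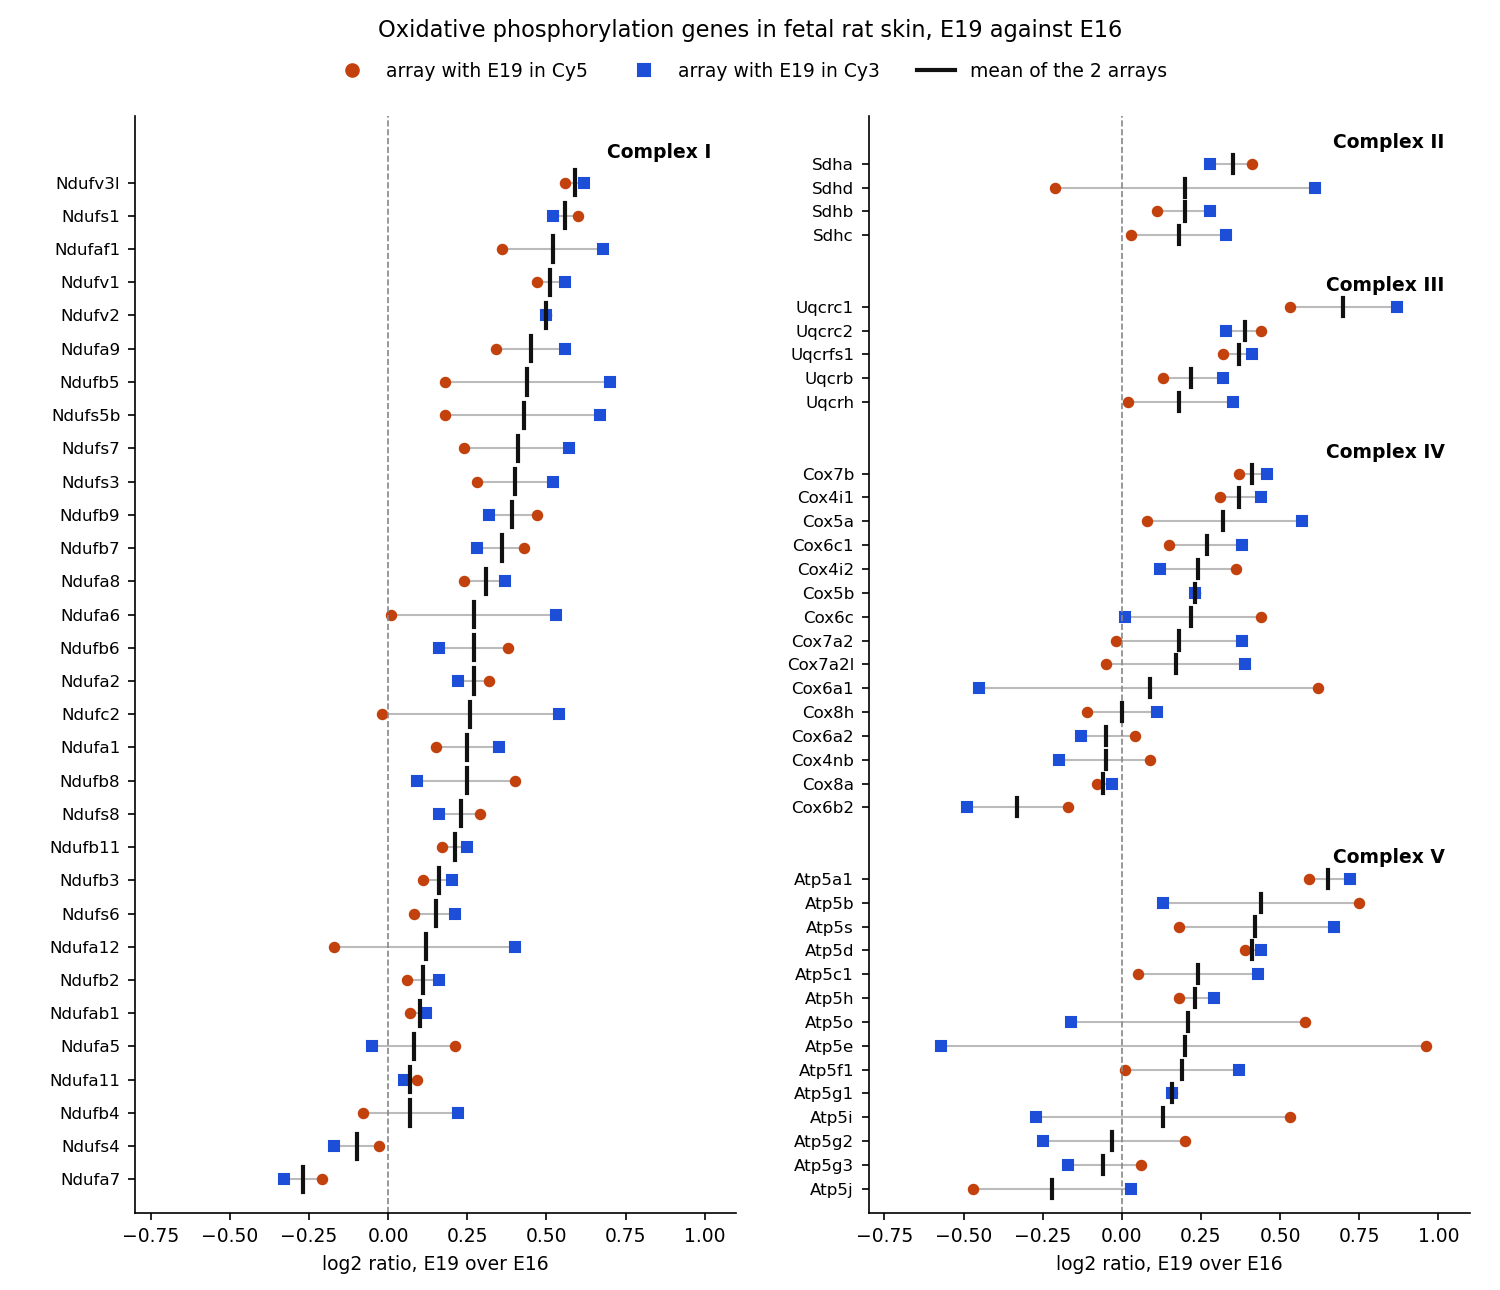
Log2 ratio of E19 over E16 (x axis) for 69 of the 70 detected oxidative phosphorylation genes, by complex, on the array whose E19 pool carried Cy5 (circles) and on the dye-swapped array (squares), with the mean of the 2 arrays as a bar. Most bars lie right of 0 and none reaches 1 (2-fold), and centred on spike-in controls the medians of complexes II, IV and V would lie just left of 0.

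Complex I, which oxidises NADH, had a median ratio of 0.26 (0.19 and 0.33 on the arrays). Of its 32 genes, 26 (81.2%) were above 0 on both arrays, against 42% of all genes, and 2 were below. The 7 nuclear catalytic subunits were all above 0 on both arrays and had a median of 0.41, or 1.33-fold. The 24 accessory subunits had a median of 0.25, with 18 above 0 on both arrays. This grouping was made after the values were seen, and the difference between the groups was not tested.

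Ndufs1, Ndufv1 and Ndufv2 take the electrons from NADH, and E19 was the higher pool on both arrays for each of them. Ndufs1, which carries several iron-sulfur clusters, had log2 levels of 12.41 in E16 and 13.01 in E19 on the array with E19 in Cy5. On the other array its levels were 12.34 and 12.85. The ratio was 0.56 ± 0.06, or 1.47-fold. Ndufv1, which holds the flavin where NADH binds, had levels of 12.24 in E16 and 12.71 in E19, and 12.18 and 12.74 with the dyes exchanged. Its ratio was 0.51 ± 0.06. Ndufv2, the iron-sulfur subunit beside Ndufv1, had a ratio of 0.50 on both arrays.

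The other catalytic subunits described here lie around the ubiquinone site. Ndufs7 was at 0.41 ± 0.23, Ndufs3 at 0.40 ± 0.17 and Ndufs8 at 0.23 ± 0.09. A second probe of Ndufs8 gave 0.15 ± 0.17. All 3 were above 0 on both arrays, and the ratio of Ndufs7 was larger with E19 in Cy3, at 0.57, than with E19 in Cy5, at 0.24. With E19 in Cy3, Ndufs7 was as high as the NADH-oxidising subunits, so their order is not settled.

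Among the accessory subunits, which surround the core and stabilise it, Ndufv3l (now Ndufv3) had the largest ratio of complex I, 0.59 ± 0.04. Its levels were 12.73 in E16 and 13.29 in E19, and 12.72 and 13.34 with the dyes exchanged, so that E19 was the higher pool on both arrays. Ndufa9 followed at 0.45 ± 0.16, but a second, dimmer probe of Ndufa9 lay at -0.14 ± 0.01, and the direction of this gene is therefore unsettled. Ndufb5 was at 0.44 ± 0.37 and Ndufs5b (now Ndufs5) at 0.43 ± 0.35. Both were at 0.18 with E19 in Cy5 and at 0.70 and 0.67 with E19 in Cy3.

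Several accessory subunits of the membrane arm, which holds the proton pumps, were above 0 on both arrays. Ndufb9 was at 0.39 ± 0.11, Ndufb7 at 0.36 ± 0.11, Ndufb6 at 0.27 ± 0.16, Ndufb11 at 0.21 ± 0.06 and Ndufb3 at 0.16 ± 0.06. Ndufb8 was at 0.25 ± 0.22, Ndufa1 at 0.25 ± 0.14 and Ndufa8 at 0.31 ± 0.09. Of these 8, Ndufb8 differed most between the arrays, with 0.40 and 0.09. Ndufa2, an accessory subunit of the arm that reaches into the matrix, was at 0.27 ± 0.07, and its second probe gave 0.23 ± 0.27.

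Other accessory subunits lay close to the median of all genes or differed between the arrays. Ndufb2 was at 0.11 ± 0.07, Ndufs6 at 0.15 ± 0.09, Ndufa11 at 0.07 ± 0.03 and Ndufab1, the mitochondrial acyl carrier protein, at 0.10 ± 0.04. Ndufa6 was at 0.01 with E19 in Cy5 and at 0.53 with E19 in Cy3. Ndufc2 (-0.02 and 0.54), Ndufa12 (-0.17 and 0.40), Ndufb4 (-0.08 and 0.22) and Ndufa5 (0.21 and -0.05) had opposite signs on the arrays, the first value of each being with E19 in Cy5. For these 4, the sign of the stage ratio could not be read. A second probe of Ndufc2 was above 0 on both arrays, at 0.39 ± 0.10.

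Ndufs4 and Ndufa7 were the complex I genes below 0 on both arrays. Ndufa7 had levels of 11.04 in E16 and 10.83 in E19, and 11.00 and 10.67 with the dyes exchanged, giving -0.27 ± 0.08. Ndufs4, which is needed to complete the NADH-binding part of complex I, had levels of 9.82 and 9.79, and 9.82 and 9.65. Its ratio of -0.10 ± 0.10 was no larger than its technical spread. The assembly factor Ndufaf1 was at 0.52 ± 0.23.

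Complex II, which links the citric acid cycle to the respiratory chain, had a median of 0.20 (0.07 and 0.31 on the arrays). Of its 4 genes, 3 (75%) were above 0 on both arrays, against 42% of all genes. Sdha, the flavoprotein that oxidises succinate, had levels of 15.51 in E16 and 15.92 in E19, and 15.58 and 15.86 with the dyes exchanged. Its ratio was 0.35 ± 0.09. The iron-sulfur subunit Sdhb was at 0.20 ± 0.12 and the membrane anchor Sdhc at 0.18 ± 0.21. The other anchor, Sdhd, was at -0.21 with E19 in Cy5 and at 0.61 with E19 in Cy3, so that its pools changed order with the dyes. Centred on spike-in controls, Sdha was at 0.13, Sdhb at -0.02 and Sdhc at -0.04.

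Complex III, which passes electrons from ubiquinone to cytochrome c, had a median of 0.37 or 1.29-fold (0.32 and 0.35 on the arrays). Differences between the complexes were not tested. All 5 genes were above 0 on both arrays, against 42% of all genes. Centred on spike-in controls the median was 0.15. Uqcrc1, a core protein, had the largest ratio of the 70 genes. Its levels were 11.80 in E16 and 12.33 in E19, and 11.74 and 12.61 with the dyes exchanged. E19 was the higher pool on both arrays, and the ratio was 0.70 ± 0.24, or 1.63-fold. With E19 in Cy5 it was 0.53, just under the limit of 1.5-fold. The other core protein gene, Uqcrc2, was at 0.39 ± 0.07, and Uqcrfs1, the Rieske iron-sulfur protein that takes electrons from ubiquinol, was at 0.37 ± 0.07. Of the small subunits, Uqcrb was at 0.22 ± 0.13 and Uqcrh at 0.18 ± 0.23. Other probes of Uqcrb gave 0.41 ± 0.43 and 0.14 ± 0.01.

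Complex IV, cytochrome c oxidase, had a median of 0.18 (0.09 and 0.12 on the arrays), and 7 of 15 detected genes (46.7%) were above 0 on both arrays, near the 42% of all genes. Cox7b had the highest ratio, with levels of 14.34 in E16 and 14.71 in E19, and 14.54 and 15.00 with the dyes exchanged. Its ratio was 0.41 ± 0.06. Cox5a, a subunit on the matrix side, was at 0.32 ± 0.34, with 0.08 and 0.57 on the arrays. Cox5b, which carries a zinc ion, was at 0.23 on both arrays, and its second probe gave 0.43 ± 0.11. Cox6c was at 0.22 ± 0.31, Cox7a2 at 0.18 ± 0.28 and the related Cox7a2l at 0.17 ± 0.31. The last pair had opposite signs on the arrays. The Cox6c pseudogene Cox6c1 was at 0.27 ± 0.17, and Cox4nb, which belongs to the membrane protein complex EMC of the endoplasmic reticulum, at -0.05 ± 0.20.

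Several complex IV subunits exist as a widespread isoform and as one used in particular tissues, and both kinds were measured. Cox4i1, the widespread isoform of the regulatory subunit IV, had levels of 13.94 in E16 and 14.25 in E19, and 13.81 and 14.24 with the dyes exchanged, giving 0.37 ± 0.09. Cox4i2, the isoform known from lung and from low oxygen, was at 0.24 ± 0.17. Both were above 0 on both arrays. Centred on spike-in controls they were at 0.15 and 0.02.

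The isoforms known from heart and skeletal muscle lay near 0. Cox6a2 had levels of 11.83 in E16 and 11.88 in E19, and 11.74 and 11.61 with the dyes exchanged, a ratio of -0.05 ± 0.13. Cox8h, now Cox8b, which is also known from brown fat, had levels of 12.89 and 12.78, and 12.59 and 12.70, a ratio of 0.00 ± 0.15. Neither stage was higher on both arrays for either gene. Both further probes of Cox8h gave 0.10 ± 0.13 and -0.05 ± 0.03. They were dim, at 7.26 and 6.92 on the log2 scale, where the undetected Cox6b was at 6.62, so they add little. Of their widespread counterparts, Cox8a was at -0.06 ± 0.04. Cox6a1 had a mean of 0.09 ± 0.75, and was at 0.62 with E19 in Cy5 and at -0.45 with E19 in Cy3.

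Cox6b2, the isoform known from testis, had the lowest ratio of all 70 genes. Its levels were 9.86 in E16 and 9.69 in E19, and 9.91 and 9.42 with the dyes exchanged. E16 was the higher pool on both arrays, and the ratio was -0.33 ± 0.22, or 0.79-fold. Its counterpart Cox6b was not detected, but whether the Cox6b probe reports its transcript was not tested. The levels of this pair can therefore not be compared.

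Complex V, the ATP synthase, had a median of 0.20 (0.19 and 0.15 on the arrays). Of its 14 genes, 8 (57.1%) were above 0 on both arrays, against 42% of all genes, and 0 were below. The 5 subunits of the F1 head, where ATP is made, had a median of 0.41, and 4 of them were above 0 on both arrays. The 8 subunits of the membrane part and stalks had a median of 0.15. Of them, 3 (37.5%) were above 0 on both arrays, near the share of all genes, and 5 had opposite signs. As for complex I, the grouping was made after the values were seen and the difference was not tested.

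Atp5a1, the alpha subunit of the head, was the gene past 1.5-fold on both arrays. Its levels were 15.00 in E16 and 15.58 in E19, and 15.16 and 15.88 with the dyes exchanged. The ratio was 0.65 ± 0.09, or 1.57-fold, and 0.43 when centred on spike-in controls. With E19 in Cy5 its ratio of 0.59 lay just over the limit of 0.585, and it did not pass with normexp at offset 0, with median centring, with the Feature Extraction log ratio or with spike-in centring. Atp5b, the catalytic beta subunit, was at 0.75 with E19 in Cy5 and at 0.13 with E19 in Cy3, a mean of 0.44 ± 0.44. Atp5d, the delta subunit, was at 0.41 ± 0.03, and Atp5c1, the gamma subunit that turns within the head, was at 0.24 ± 0.27. The epsilon subunit Atp5e had the largest disagreement of all 70 genes, 0.96 with E19 in Cy5 and -0.57 with the dyes exchanged.

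In the membrane part and stalks, Atp5h was at 0.23 ± 0.08 and Atp5f1, the b subunit of the outer stalk, at 0.19 ± 0.25. Atp5o, which joins the outer stalk to the head, was at 0.58 and -0.16 on the arrays, and Atp5i at 0.53 and -0.27. In both genes the pool with Cy5 was the higher one each time. Atp5j, a stalk subunit, had a mean of -0.22 ± 0.35, with -0.47 and 0.03 on the arrays. The genes Atp5g1, Atp5g2 and Atp5g3 encode the same mature subunit c, which forms the turning ring. Atp5g1 was at 0.16 on both arrays, Atp5g2 at -0.03 ± 0.32 and Atp5g3 at -0.06 ± 0.16, and a second probe of Atp5g2 gave 0.07 ± 0.21. Of these 3, Atp5g1 alone had the same sign on both arrays, and centred on spike-in controls it was at -0.06. Atp5s, now Dmac2l, which is not a subunit, was at 0.42 ± 0.34.

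The order of the genes within the group did not repeat from array to array. Across the 70 genes the ratios of the 2 arrays had a Pearson r of 0.04 (Spearman's rho 0.13), whereas across all 14791 detected genes r was 0.90 (rho 0.80). These correlations cover unlike ranges, with mean ratios from -0.33 to 0.70 in the group and from -4.87 to 4.87 over all genes. The median SD of the 2 arrays was 0.16 in the group and 0.11 over all genes. The points share the same 2 arrays and pools, and genes are not independent replicates. In 5 genes the SD of the arrays was over 0.5, namely Atp5e, Cox6a1, Sdhd, Atp5i and Atp5o, and all 5 had opposite signs. The 35 genes with the brighter probes had a median SD of 0.22 and the 35 with the dimmer probes 0.15, while their median ratios were 0.22 and 0.27. Mean ratio against probe brightness gave r = 0.08 across the 70 genes.

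The agreement in sign between the arrays was lost for most genes when median centring replaced loess. With median centring in place of loess, the oxidative phosphorylation genes had array medians of 0.89 with E19 in Cy5 and -0.44 with the dyes exchanged, and all genes 0.31 and -0.31. The mean over both arrays then gave 0.24 for the oxidative phosphorylation genes and 0.01 for all genes, but 6 of 70 genes were above 0 on both arrays and 64 had opposite signs. Feature Extraction's processed signals, median centred, left 46 of the 70 above 0 on both arrays, and its log ratio left 48. After loess, 95 detected genes of the cytosolic ribosome, also bright probes, had array medians of 0.28 and -0.25, and 78 of them had opposite signs. Their mean ratio had a median of 0.02.

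**Figure D2:**
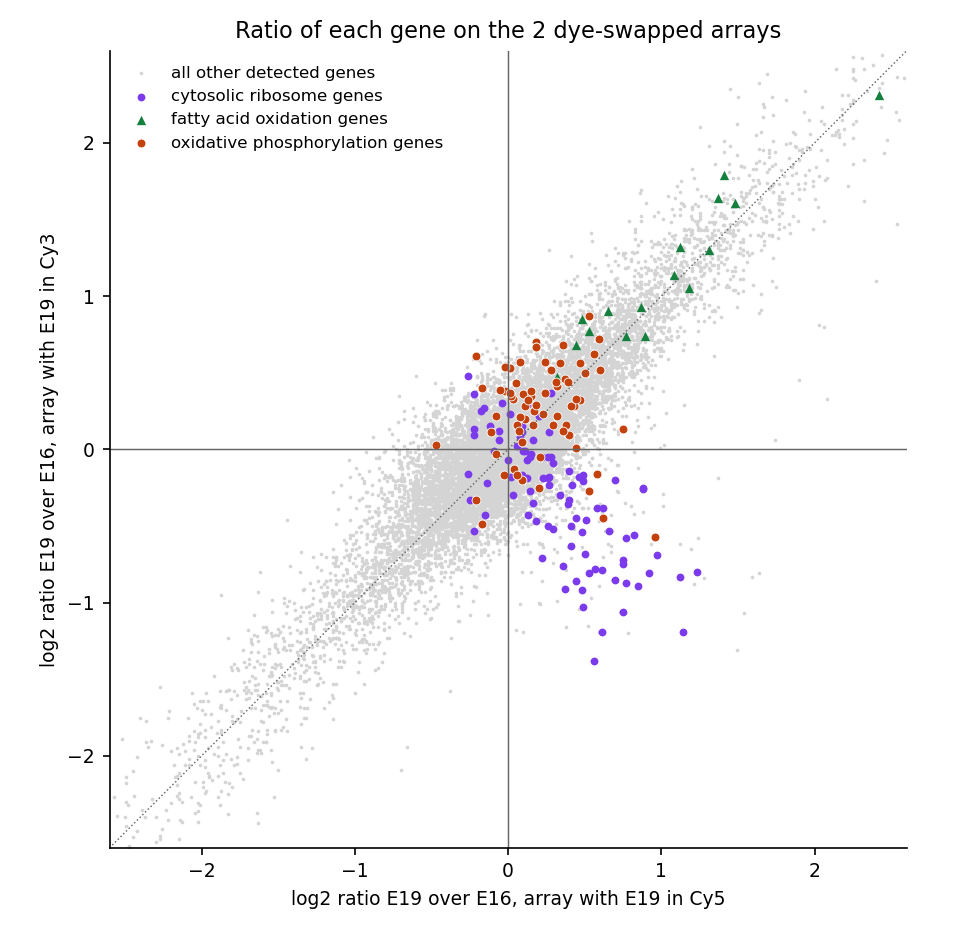
Log2 ratio of E19 over E16 on the array with E19 in Cy5 (x axis) and on the array with E19 in Cy3 (y axis) for each detected gene, with equality as a dotted line and 105 genes beyond 2.6 in size not drawn. Fatty acid oxidation genes lie along the line, oxidative phosphorylation genes form a cloud around 0.18 and 0.30 with no slope of its own (r = 0.04), and cytosolic ribosome genes lie off the line towards one dye.

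Other genes of mitochondrial respiration were counted from lists of known genes. For comparison, 42% of all detected genes were above 0 on both arrays, 9.55% passed 1.5-fold and 4.14% passed 2-fold in E19. Of 11 detected electron carrier genes, 10 were above 0 on both arrays and 3 passed 1.5-fold in E19, with a median of 0.42. The 3 pass electrons from fatty acid oxidation to ubiquinone: Etfdh was at 1.38 ± 0.03, Etfb at 1.05 ± 0.34 and Etfa at 1.01 ± 0.05. They feed the chain at the same point as complexes I and II. Cyc1, the cytochrome c1 of complex III that the name rule left out, was at 0.56 ± 0.32, and cytochrome c itself, Cycs, at 0.29 ± 0.31.

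Lists of genes that supply electrons to the chain had higher medians than the subunits of the chain, a difference that was not tested. Of 16 fatty acid oxidation genes, 16 were above 0 on both arrays, 12 passed 1.5-fold and 8 passed 2-fold in E19, with a median ratio of 2.01-fold. Cpt1b, which brings long fatty acids into mitochondria in muscle and brown fat, was at 2.37 ± 0.08. The dehydrogenases Acadl (1.60 ± 0.27), Acadvl (1.55 ± 0.09) and Hadh (1.37 and 1.64 on the arrays) followed. Of 17 genes of the citric acid cycle and pyruvate dehydrogenase, 5 passed 1.5-fold in E19 and 0 in E16, with a median of 0.38. Among them, Pdhb was at 0.83 ± 0.07, Sucla2 at 0.80 ± 0.02 and Idh3a at 0.80 ± 0.12.

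The lists that build or serve the chain had medians over both arrays between 0.10 and 0.18, and their difference from the oxidative phosphorylation genes was not tested. Of 24 detected assembly factors, 0 passed 1.5-fold in either direction and the median was 0.18 (0.19 with E19 in Cy5, where the oxidative phosphorylation genes were at 0.18). The 62 genes of the mitochondrial ribosome, which makes the subunits encoded in mitochondrial DNA, had a median of 0.11, and Mrpl43 alone passed (0.65 ± 0.02). The 20 protein import genes had a median of 0.11 with 0 past 1.5-fold. The 14 carriers and porins had a median of 0.10, with Ucp3 alone past 1.5-fold (0.92 ± 0.09), from dim E16 levels of 6.78 and 6.62. The carriers of ATP and phosphate that serve complex V had ratios on both sides of 0: the ADP/ATP carrier Slc25a4 was at -0.40 ± 0.21 and the phosphate carrier Slc25a3 at -0.32 ± 0.10, while the other ADP/ATP carrier Slc25a5 was at 0.41 ± 0.44. These carriers, Cyc1 and Cycs were named after their values were seen.

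The regulators of mitochondrial genes had ratios on both sides of 0. Of 13 detected, Ppara, a receptor that drives fatty acid oxidation genes, alone passed 1.5-fold in E19 (0.77 ± 0.05), and the median was 0.18. In all, 8 of the 13 (61.5%) were above 0 on both arrays, against 42% of all genes, and 3 were below. The coactivator Ppargc1a and the receptors Esrrb and Esrrg were not detected, and Esrra had no probe of this name. Ppargc1b was at 0.52 ± 0.14 and Gabpb1 at -0.34 ± 0.06. Of the factors whose motifs were searched, Nrf1 was at 0.04 ± 0.18, the ETS factor Gabpa at 0.18 ± 0.05 and Yy1 at -0.19 ± 0.08. Tfam, which packs and transcribes mitochondrial DNA, was at -0.36 ± 0.07. Apart from Ppara, the regulators given here were likewise named after their values were seen.

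**Figure D3:**
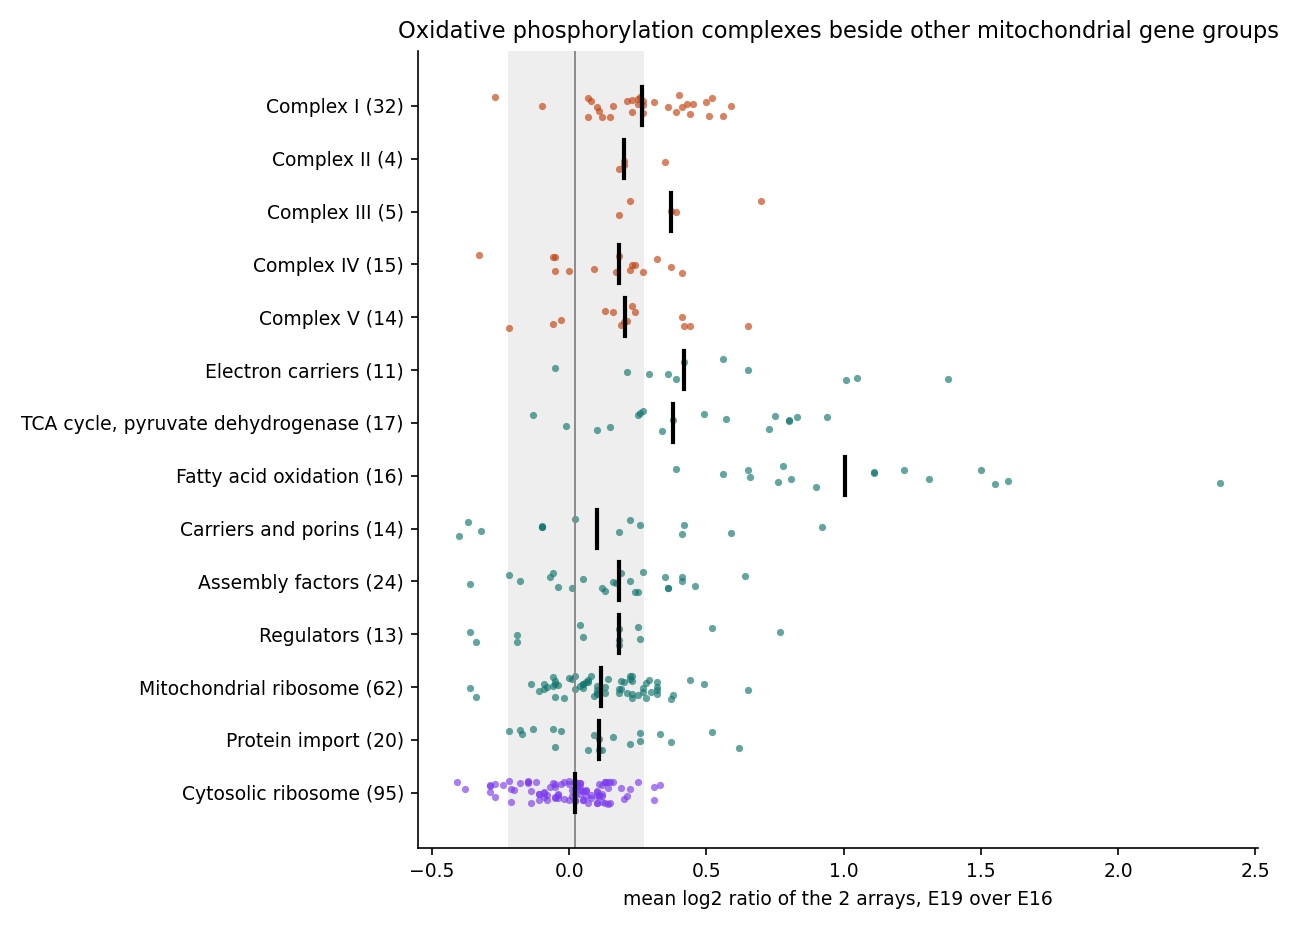
Mean log2 ratio of E19 over E16 over the 2 arrays (x axis) for each gene of each group (y axis, with the number of detected genes), with group medians as black bars, the median of all detected genes (0.02) as a grey line and the range between their quartiles (-0.22 to 0.27) shaded. The complexes have medians from 0.18 to 0.37, between those of fatty acid oxidation genes (2.01-fold) and the cytosolic ribosome (0.02), and centred on spike-in controls complexes II, IV and V fall just under 0.

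Markers of several cell types differed far more between the pools than the oxidative phosphorylation genes did. Of 10 fat cell markers, 8 were detected, and all 8 were past 2-fold in E19, with a median of 2.87. Their summed level on the log2 scale was 12.41 and 12.83 in E16 and 16.51 and 16.55 in E19. Elovl3 was not detected. Ucp1, the uncoupling protein of brown fat, was at 3.67 ± 0.30 and Adipoq at 4.87 ± 0.14. All 7 detected keratinocyte markers had a mean above 0, with a median of 1.70, and their summed level was 18.14 and 19.51 in E16 and 20.31 and 20.39 in E19. Of these, 6 were above 0 on both arrays, while Krt15 had opposite signs (0.72 and -0.10). The arrays disagreed in size for Krt14 (SD 1.79), Krt1 (SD 1.56) and Krt10 (SD 1.04). All 5 neuron markers were past 1.5-fold in E16, with a median of -3.22 and a summed level of 14.76 and 14.81 in E16 and 12.18 and 12.08 in E19.

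Skeletal muscle, which is rich in mitochondria, was marked in both pools. Of its 12 markers, 3 were past 1.5-fold in E19 and 7 in E16, with a median of -0.68. Those higher in E19 were Myh8 (1.80 ± 0.14), Pvalb (1.47 ± 0.16) and Ckm (1.17 ± 0.07). Of those higher in E16, Myod1 (-2.48 ± 0.02) and Myog (-1.61 ± 0.12) had the largest ratios. The summed level of the 12 markers was 18.63 and 18.61 in E16 and 18.17 and 17.64 in E19. It leans on Myh3, the brightest marker, at 17.87 in E16 on both arrays and 17.17 and 15.77 in E19. The amount of muscle in each pool cannot be read from it. Fibroblast markers had a median of 0.50, with a summed level of 18.31 and 18.94 in E16 and 19.43 and 19.18 in E19. The 4 detected of 6 erythroid markers had a median of -0.06 and a summed level of 16.85 and 16.68 in E16 and 16.70 and 16.86 in E19. The part of these cell types in the ratios of the oxidative phosphorylation genes was not tested.

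Array names miss some subunit genes that now have a standard name. An added count, made after seeing the data, took 7 such genes, of which 6 were detected and 5 were above 0 on both arrays, with a median of 0.28. Ndufa10l1 was at 0.39 ± 0.35, Atp5mg, the g subunit of complex V, at 0.16 ± 0.17, and Uqcrq of complex III at 0.06 ± 0.03. The probe of Uqcrq was dim, at 6.84 on the log2 scale. Atp5mk, a small membrane subunit of complex V, was at -0.05 ± 0.52. Entries related to processed gene copies, Ndufa13-ps1 (0.46 ± 0.45) and Atp5hl1 (0.40 ± 0.30), are uncertain, since a probe may also bind the parent transcript. With the 5 genes that are not subunits left out, the median of the other 65 was 0.23 and 46 were above 0 on both arrays.

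The authors' deposited table, which combines both arrays, held a ratio for all 70 genes. Its direction was inferred from its correlation across genes with the array that has E19 in Cy5 (r = 0.90), so its sign is no independent support. In the authors' deposited table their median was 0.22, against 0.05 for all genes, 60 were above 0, and they ranged from -0.33 to 0.68. Over 14 alternative settings the distance between the median of the oxidative phosphorylation genes and that of all genes lay between 0.15 and 0.28.

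**Figure D4:**
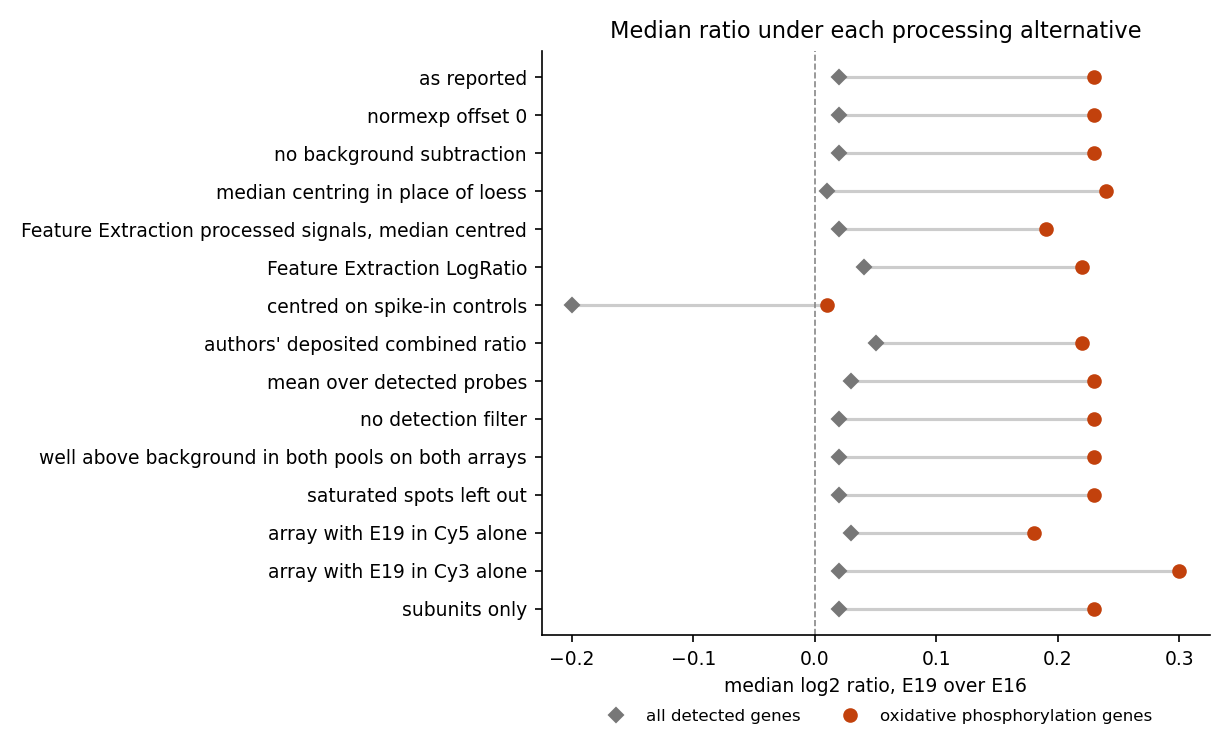
Median log2 ratio of E19 over E16 (x axis) of all detected genes (diamonds) and of the oxidative phosphorylation genes (circles) as reported and under each of 14 alternative settings (y axis). The circles lie right of the diamonds in every setting shown, by 0.15 to 0.28, while centring on spike-in controls moves both to the left, to 0.01 and -0.20.

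The motif matches in the promoters were counted beside those of all 33469 promoters in the table. The NRF1 motif GCGCANGCG was found in 16 of 62 promoters (25.8%), against 5.8% of all promoters and 7.62% of those of protein-coding genes. The YY1 motif AAGATGGCG was found in 9 (14.5%), against 1.73% of all and 2.07% of protein-coding genes. The ETS motif CCGGAAGT, which GABPA and other ETS factors share, was found in 6 (9.68%), against 3.81% and 4.77%. The ERR motif TCAAGGTCA of the estrogen-related receptors was found in 2 (3.23%), against 0.433% and 0.366%. NRF1 matches can overlap one another, as in the promoter of Ndufa11. In all, 29 of the 62 promoters held at least 1 match. A match is a string of letters and no evidence of binding.

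Motif matches were found in genes with large and with small ratios. Genes with the NRF1 motif had a median ratio of 0.16 and those without it 0.24. For the YY1 motif the medians were 0.27 and 0.21, for the ETS motif 0.29 and 0.21, and for the ERR motif 0.07 and 0.23. The 4 printed stretches are examples of this only, since they were chosen by their ratios among genes with a match. Uqcrc1, with NRF1 and YY1 matches, had a ratio of 0.70, and Atp5a1 and Ndufs1, each with an ETS match, had 0.65 and 0.56, but Cox8a, with a pair of ETS matches close to the start, was at -0.06. The YY1 matches lay near the start site in 8 of the 9 promoters, between 3 and 30 bases after it, and in the promoter of Atp5j the match was at -107.

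**Figure D5:**
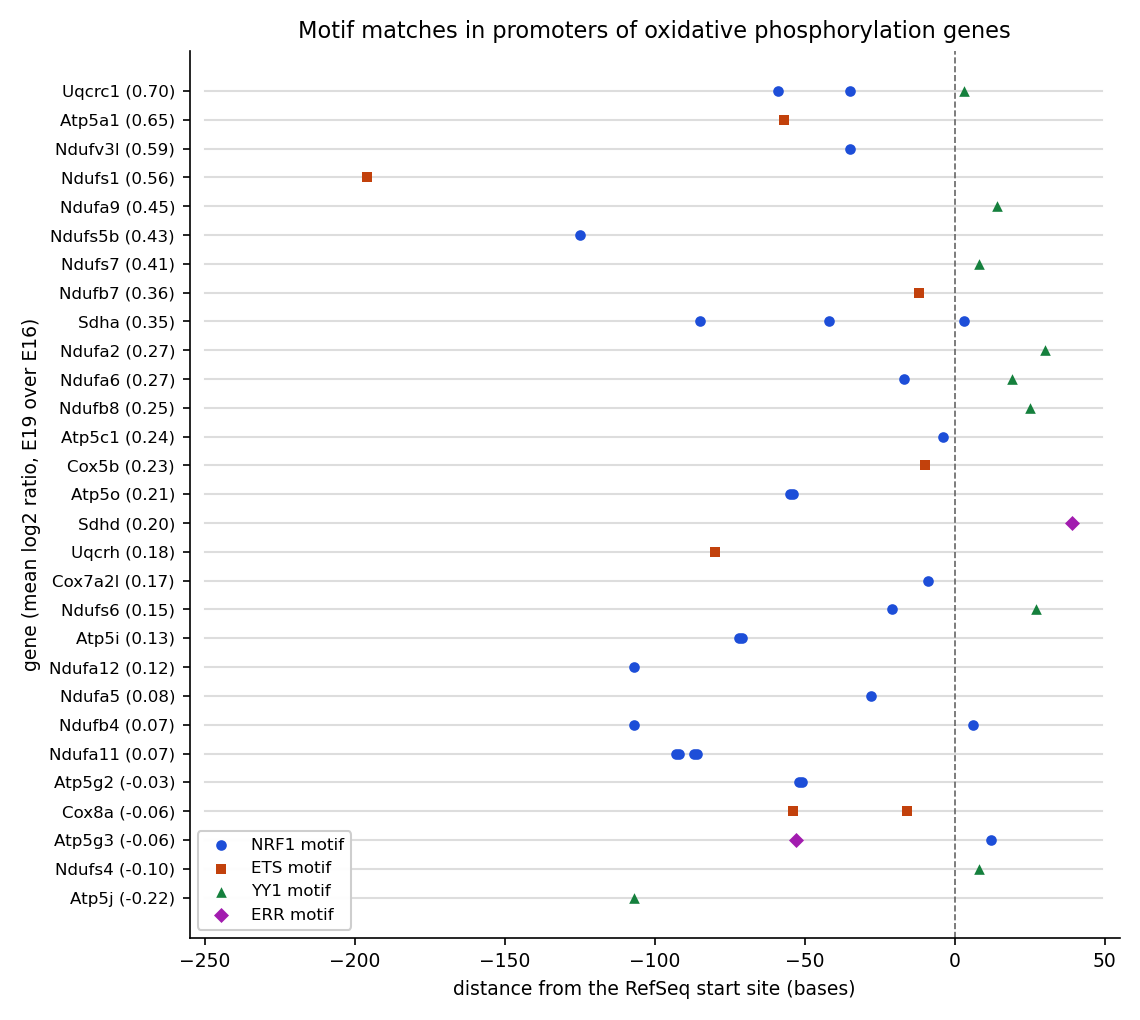
Distance of each motif match from the RefSeq start site in bases (x axis) for the 29 oxidative phosphorylation genes with at least 1 match, ordered by mean log2 ratio of E19 over E16, which is given beside each name (y axis). NRF1 (circles), ETS (squares), YY1 (triangles) and ERR (diamonds) matches occur among genes with high and low ratios alike, from Uqcrc1 at 0.70 to Atp5j at -0.22.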

How the data were processed

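RNA of both pools was amplified and labelled for 2-colour Agilent arrays. Per the file headers, spot intensity and local background were measured with Agilent Feature Extraction 9.5.1.1. Per the file headers, that program also wrote processed intensities, a log10 ratio of Cy5 over Cy3 and its p-value. The authors' deposited table holds, per sequence, one combined log10 ratio with a p-value. How the arrays were combined is not given in the sources used here, and the ratio was read as E19 over E16 and turned to log2. Here, background was corrected with normexp (offset 50) and ratios were normalised by loess within arrays, with control spots at weight 0 (limma 3.58.1, R 4.3.3). Flagged spots were left out, saturated spots kept, and spots of a probe averaged. A probe was detected when well above background for at least 1 pool on both arrays, and the brightest detected probe stood for a gene. Levels are log2 intensities per channel after loess and Aquantile. Names were updated through RefSeq (GRCr8): 45 of the 71 genes matched by accession, 23 by symbol and 3 by synonym. Later steps used Python 3.11.15. Both arrays hold the same RNA and count as 1 replicate per stage, so no test was run and calls are by size. The normalisation alone was tested on simulated arrays. The changed probes there were dimmer than the median of the oxidative phosphorylation genes (15.16 on the log2 scale). That test therefore does not cover dye effects at bright probes. The genes and lists were chosen with earlier results of these data known. Named were the genes past 1.5-fold, the 3 highest and 3 lowest of each complex, tissue isoforms, and up to 4 genes per other list. Other subunits were described too, and 1 gene of the group and 1 of another list are not reported by name here. Whether probes also bind pseudogene transcripts was not tested.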

Additional observations from a re-analysis of the deposited data

How the results depend on the processing

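Over the 14 alternatives, 0 genes passed 2-fold in either direction and 0 passed 1.5-fold in E16, and the cause of the shifts that follow was not tested. Normexp at offset 0 and the Feature Extraction log ratio each left 0 genes past 1.5-fold in E19. Median centring gave 0 past 1.5-fold, 6 above 0 and 0 below 0 on both arrays, with a complex V median of 0.24. Feature Extraction's processed signals gave medians of 0.34, 0.15 and 0.16 for complexes III, IV and V. Centring on spike-in controls gave 0.01 for the whole group, 0.05 for complex I, -0.02 for complex II, 0.15 for complex III, -0.04 for complex IV and -0.02 for complex V, with 0 genes past 1.5-fold, 18 above 0 and 15 below 0 on both arrays. The authors' deposited table gave 2 genes past 1.5-fold and 10 below 0. On 1 array alone, the group median was 0.18 with E19 in Cy5 and 0.30 with the dyes exchanged. Single arrays gave 0.32 to 0.35 for complex III, 0.09 to 0.12 for complex IV and 0.15 to 0.19 for complex V. They gave 5 to 8 genes past 1.5-fold, of which Atp5a1 alone was on both, and 12 to 13 below 0. For 34 named genes, 443 values under the alternatives stayed within the SD of the arrays of the value reported, and 29 moved further. Each ratio already pairs the pools within an array. No paired analysis was possible because there is 1 pool per stage, and the dye orientations share a single replicate number.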
